A study of Homo sapiens with 8 samples.

Results

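The genes described here belong to the Notch pathway: the receptors NOTCH1, NOTCH2 and NOTCH3, the ligand JAG1, the nuclear proteins RBPJ and MAML1, the regulator NUMB and the target HES1. They were taken by symbol from the RNA-Seq values of all libraries, and 7 of the 8 had values among the 12939 genes of the table. NOTCH3 was not analysed here. The cells were cancer stem cells (CSCs) of MDA-MB-231, a triple-negative human breast cancer line, that carried GFP under the Oct4a regulatory region and were kept in G418. On top of that, each line stably carried the RFP vector pRFP-C-RS with scramble, CDH2 or Cx43 shRNA and was selected in puromycin. CDH2 encodes N-cadherin and Cx43 is the gap junction protein connexin. The CDH2 shRNA line was 1 clone, Clone B. Cells high for both GFP and RFP were sorted, recovered overnight, and gave total RNA that was depleted of ribosomal RNA. Scramble shRNA had 3 libraries, CDH2 shRNA had 3 and Cx43 shRNA had 2, and the labels number the replicates of a group. The labels do not say that the replicates came from separate cultures, so every p-value measures the spread between these libraries, which may be technical.

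Notch receptors are cleaved after a ligand on a neighbouring cell binds them, and the freed intracellular domain moves to the nucleus. There it joins the DNA-binding protein RBPJ and a Mastermind coactivator and switches on targets such as the HES and HEY repressors. Notch signaling is known in breast cancer for its part in stem-like cells and in the contact between cancer cells and stroma.

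All values are log2(CPM + 1), where CPM is the count of a gene scaled to a common library total, as normalized by the authors. They hold no counts, so sequencing depth is unknown and the number of libraries limits the precision. Turned back to CPM, the values summed to between 684411 and 727083 in a library. Markers of the line such as VIM, CD44 and AXL had values for 6 of 6 genes, and their summed level, as log2(CPM + 1), was 11.26 to 11.27 with scramble and 11.34 to 11.46 with either knockdown. Of the fibroblast markers, COL1A1 and PDGFRB, 2 of 4, had values, and their summed level was 5.77 to 6.07 with scramble, 5.37 to 5.74 with CDH2 shRNA and 4.93 to 5.37 with Cx43 shRNA. Of the luminal or epithelial markers, ERBB2 and EPCAM, 2 of 6, had values and summed to 5.41 to 5.58 with scramble, 5.31 to 5.45 with CDH2 shRNA and 5.57 to 5.69 with Cx43 shRNA. CD68, the 1 of 4 hematopoietic markers with values, was at 4.18 to 4.21, 4.21 to 4.49 and 3.76 to 4.08 in the same order of groups. PECAM1, the 1 of 3 endothelial markers with values, was at 2.16 to 2.50, 1.67 to 1.95 and 1.93 to 2.17. The other markers, CDH2 and GJA1, the gene of Cx43, were not analysed here, which leaves the knockdowns themselves without a check in these values. The part of these markers in the results below was not tested.

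Scramble replicate 1 stood apart from the other libraries. In each gene it lay at the mean of scramble replicates 2 and 3, with a median gap of 0.0054 and a largest gap of 0.102, whereas replicates 2 and 3 had a median gap of 0.191. Across genes, its deviation from the scramble mean had an SD of 0.0064, against 0.0833 to 0.139 for the other libraries. It therefore held little information of its own, and the tests of the Notch genes and each call are given with and without it. In every gene, when the group mean was taken from each library, what remained summed to at most 1e-04 over the libraries of 1 replicate number, so libraries with the same number were tied to each other in the deposited values.

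HES1, a repressor that is the classical direct target of Notch, has its start site on the plus strand of chromosome 3. The 150 bases before it (chr3:194135998-194136147, RefSeq, GRCh38.p14) are printed because they hold copies of TGGGAA, the core of the site that RBPJ binds. The 250 bases before the start of HEYL, a HEY family target on the minus strand of chromosome 1 (chr1:39639644-39639893), are printed as well. HES1 and HEYL were the only targets of the pathway list below with 2 copies in a window. Capitals mark TGGGAA or its reverse complement TTCCCA.
HES1: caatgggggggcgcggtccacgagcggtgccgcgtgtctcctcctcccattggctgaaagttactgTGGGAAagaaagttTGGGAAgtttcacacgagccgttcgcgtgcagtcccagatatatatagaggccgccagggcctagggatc
HEYL: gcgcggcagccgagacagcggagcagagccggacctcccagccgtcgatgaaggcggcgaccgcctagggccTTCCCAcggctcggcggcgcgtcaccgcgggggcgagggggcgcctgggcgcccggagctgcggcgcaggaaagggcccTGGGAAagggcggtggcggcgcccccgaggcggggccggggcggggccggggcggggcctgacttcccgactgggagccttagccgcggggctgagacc

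The HES1 stretch held 2 forward copies, which began 84 and 70 bases before the start and had 8 bases between them. The HEYL stretch held a reverse and a forward copy, 178 and 99 bases before the start, with 73 bases between them. Both strands were searched in windows from 250 bases before to 50 bases after each start. Of all 35116 RefSeq windows, 24% held at least 1 copy and 3.8% held 2 or more. By gene, 27.6% of the 9276 genes with values and a window had a copy, and 4.42% had 2 or more in 1 window. All 7 Notch genes with values had a window, and HES1 and 1 of the windows of RBPJ held copies, 2 each. Of the 13 targets with values in the pathway list below, 8 had a window and HES1, HES4 and HEYL held a copy. A match to these letters is a description and does not show that RBPJ bound there.

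Between genes, levels were compared as CPM per kilobase of exons. HES1 had the highest level, 69.7 ± 1.15 with scramble, 56.3 ± 6.31 with CDH2 shRNA (both SD, n = 3) and 85.0 ± 13.4 with Cx43 shRNA (SD, n = 2). NOTCH2, the receptor with the most RNA, came next with 30.8 ± 5.55, 39.7 ± 9.06 and 29.8 ± 2.90 in the same order of groups. NOTCH1, the other receptor, had lower values of 3.26 ± 0.0286, 4.42 ± 0.516 and 3.69 ± 0.636.

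With scramble, MAML1 had 9.20, NUMB 6.49, RBPJ 4.41 and JAG1 2.65 CPM per kilobase, so JAG1 was the lowest of the 7. The order HES1, NOTCH2, MAML1, NUMB, RBPJ, NOTCH1 and JAG1 was the same in the 3 groups. Neighbours in that order did not overlap between libraries in the scramble and Cx43 shRNA groups. With CDH2 shRNA, NOTCH1 (3.93 to 4.96) overlapped RBPJ (4.39 to 4.63). There the highest library of NOTCH2 (32.5 to 49.9) also reached past the lowest of HES1 (49.6 to 62.1). Per kilobase of the longest transcript, NUMB and RBPJ (11.7) stood above MAML1 (9.55) with scramble, and JAG1 (4.16) and NOTCH1 (4.14) changed places, so only the ranks of HES1 and NOTCH2 did not depend on the length used.

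**Figure D1:**
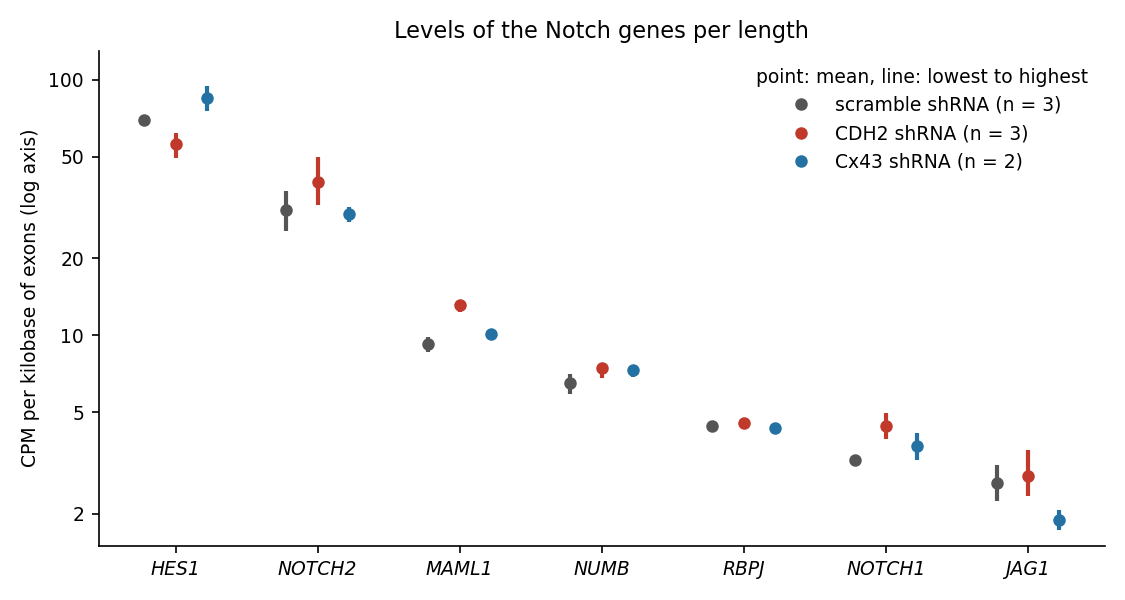
Level of each Notch gene in CPM per kilobase of merged exons, on a log axis, by group. Points are group means and lines run from the lowest to the highest library; HES1 and NOTCH2 lie above the other 5 genes in each group.

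The comparison of CDH2 shRNA with scramble asked how the loss of N-cadherin changes transcripts in CSCs. It left 6 of the 7 Notch genes short of an adjusted p of 0.05, and the exception was MAML1. None of the 7 was past threshold, which here means an adjusted p under 0.05 by limma and a log2 fold change of at least 0.73 in either direction, the size used in the study's methods. That was the case for 2.06% of all 12939 genes. At an adjusted p under 0.05 and any fold, 1 of 7 was called, against 14.3% of all genes, 7.29% higher and 6.98% lower, so the share of the Notch genes was that of the table. The libraries of the 2 groups did not overlap for 3 of 7 genes, NOTCH1, MAML1 and HES1, as for 51.9% of all genes. The median log2 fold change was 0.19 over the 7 genes and 0.01 over all genes. Without CDH2 shRNA replicate 3 or scramble replicate 3, which give the same fit, 4 of 7 genes had an adjusted p under 0.05: NOTCH1 (0.43), NOTCH2 (0.62), MAML1 (0.59) and NUMB (0.32), all higher. That fit called 5309 of the 12939 genes (41%). In bulk RNA, fewer cells that express a gene and less RNA per cell cannot be told apart.

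Among the receptors, NOTCH1 (chromosome 9) was at 5.37, 5.39 and 5.40 in scramble replicates 1, 2 and 3 and at 5.65, 5.98 and 5.80 in CDH2 shRNA replicates 1, 2 and 3. All 3 CDH2 shRNA libraries lay above all 3 scramble libraries. The difference in log2 was 0.42 (SE 0.13, 95% interval 0.09 to 0.75), or 1.34-fold, with an adjusted p of 0.0817 by limma. It was 0.41 (adjusted p = 0.31) without scramble replicate 1.

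NOTCH2 (chromosome 1), the more abundant receptor, was at 8.98, 8.74 and 9.26 with scramble and at 9.27, 9.71 and 9.09 with CDH2 shRNA. CDH2 shRNA replicate 3 was below scramble replicate 3, so the groups overlapped. The difference of 0.36 (SE 0.21, interval -0.17 to 0.88, adjusted p = 0.266) was within the spread of the libraries. Without scramble replicate 1 it was 0.35 (adjusted p = 0.476).

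A separate row, NOTCH2NL, is nearly identical in sequence to part of NOTCH2, and reads can be shared between them, so the value of NOTCH2 carries that uncertainty. NOTCH2NL was at 5.49, 5.57 and 5.40 with scramble and at 4.92, 4.86 and 5.02 with CDH2 shRNA, all 3 lower. The log2 difference of -0.55 had an adjusted p of 0.0251 by limma, in the direction opposite to that of the NOTCH2 value, and an adjusted p of 0.191 without scramble replicate 1. With Cx43 shRNA, NOTCH2NL was at 5.06 and 5.04, also below all scramble libraries (-0.43, adjusted p = 0.108 by limma). This row lay outside the rule for named genes and was added after its values had been seen.

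JAG1 (chromosome 20), a transmembrane ligand, was at 4.66, 4.45 and 4.90 with scramble and at 4.63, 5.09 and 4.51 with CDH2 shRNA. The groups overlapped fully but for CDH2 shRNA replicate 2, the highest library. The difference was 0.07 (SE 0.20, interval -0.42 to 0.57, adjusted p = 0.814), and 0.06 (adjusted p = 0.91) without scramble replicate 1.

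The 2 nuclear partners differed from each other. RBPJ (chromosome 4), which binds DNA, had the narrowest range of the 7, from 6.05 to 6.17 over all 8 libraries, and a difference of 0.04 (SE 0.08, interval -0.15 to 0.23, adjusted p = 0.718). It was 0.04 (adjusted p = 0.912) without scramble replicate 1. RBPJ has processed pseudogenes elsewhere in the genome, which can take some of its reads.

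MAML1 (chromosome 5, 179732822 to 179777283 on hg38), the Mastermind coactivator that bridges the Notch complex to histone acetyltransferases, was at 5.80, 5.71 and 5.89 with scramble and at 6.32, 6.38 and 6.21 with CDH2 shRNA. Every CDH2 shRNA library was above every scramble library, with a gap of over 3 times the SD of either group (0.09). MAML1 rose by 0.50 in log2 (SE 0.09, interval 0.27 to 0.73), or 1.41-fold, with an adjusted p of 0.0309 by limma.

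MAML1 was still 0.50 higher without scramble replicate 1, but the adjusted p was then 0.211, and 10 genes in the whole table had an adjusted p under 0.05. The call was also lost without CDH2 shRNA replicate 1 (0.49, adjusted p = 0.136), without CDH2 shRNA replicate 2 (0.44, 0.0959) and without either Cx43 shRNA library (0.50, 0.0694). Over 17 alternatives the difference ran from 0.43 to 0.59 and the adjusted p from 0.00163 to 0.211, with 10 under 0.05.

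NUMB (chromosome 14), an endocytic adaptor that restrains Notch, was at 5.98, 5.84 and 6.10 with scramble and at 6.24, 6.22 and 6.04 with CDH2 shRNA. CDH2 shRNA replicate 3 was below scramble replicate 3. The difference was 0.19 (SE 0.11, interval -0.09 to 0.47, adjusted p = 0.262), and 0.20 (adjusted p = 0.591) without scramble replicate 1.

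HES1 was the only one of the 7 with a lower mean under CDH2 shRNA. Its values were 7.19, 7.19 and 7.15 with scramble and 7.01, 6.69 and 6.89 with CDH2 shRNA, and all 3 of the latter lay below all scramble libraries. The difference of -0.31 (SE 0.13, interval -0.63 to 0.01), or 0.81-fold, had an adjusted p of 0.14 by limma. It was -0.30 (adjusted p = 0.427) without scramble replicate 1.

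**Figure D2:**
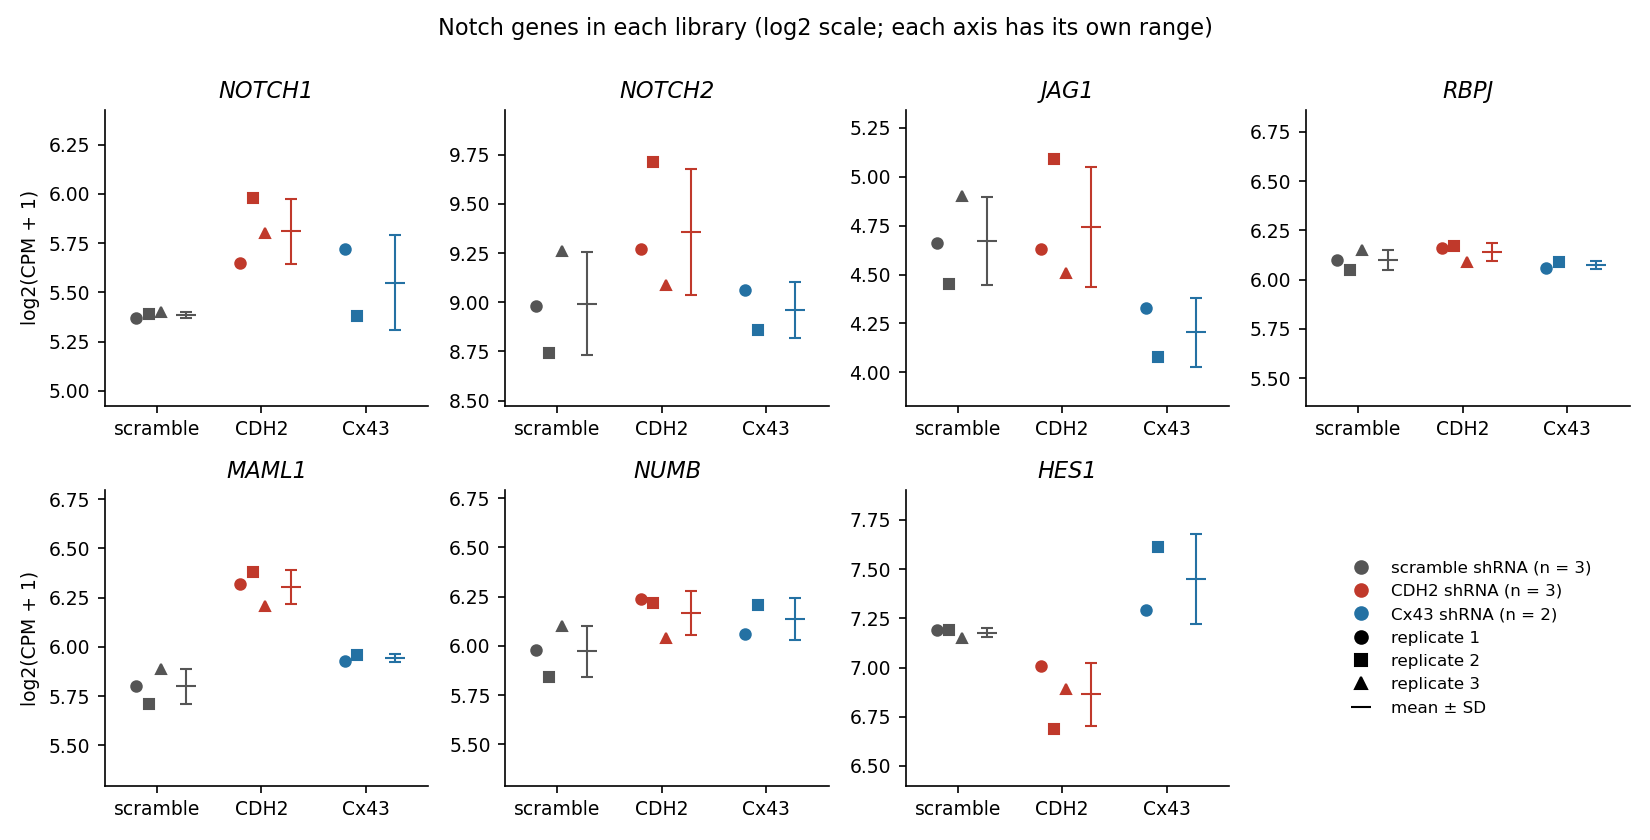
Value of each Notch gene in each library as log2(CPM + 1), by group, with the mean and SD beside the points; symbols mark the replicate number. MAML1 and NOTCH1 lie higher and HES1 lower in all 3 CDH2 shRNA libraries than in the scramble libraries, and the y axis of each panel has its own range.

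The fold changes under CDH2 shRNA moved with the length of the longest transcript across the whole table. When 12181 genes were cut into 4 groups of about equal size by length, from the shortest to the longest, the median log2 fold change was -0.19, -0.03, 0.08 and 0.19. In the longest group, 12.5% of genes had an adjusted p under 0.05 and a higher value, against 1.87% in the shortest. Of the 7 Notch genes, 5 were in the longest group, NUMB was in the next and HES1 in the shortest. A correction for length and GC content, chosen after the data were seen, left MAML1 at 0.47 (adjusted p = 0.0231) and NOTCH1 at 0.38 (0.0614). It moved HES1 to -0.15 (adjusted p = 0.436), NOTCH2 to 0.17, NUMB to 0.04, JAG1 to -0.03 and RBPJ to -0.14. The cause of this trend was not tested.

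The comparison of Cx43 shRNA with scramble addressed the same question for the gap junction protein. None of the 7 Notch genes was past threshold (adjusted p under 0.05 and a log2 fold change of at least 0.58) or had an adjusted p under 0.05 at any fold, and none had an unadjusted p under 0.05. Over all genes, 1.18% and 1.21% were called by the 2 rules with an adjusted p, and 21.6% had an unadjusted p under 0.05 by limma. The groups did not overlap for 3 of 7 genes, JAG1, MAML1 and HES1, as for 52.8% of all genes. The median log2 fold change was 0.14 over the 7 and 0.04 over all genes. The scramble libraries are the same as in the CDH2 comparison, so the 2 sets of differences are not independent.

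JAG1 was at 4.33 and 4.08 in the 2 Cx43 shRNA libraries, both below the lowest scramble library. The difference was -0.46 (SE 0.24, interval -1.05 to 0.12), or 0.73-fold, with an adjusted p of 0.318, and -0.48 (adjusted p = 0.831) without scramble replicate 1. JAG1 was the member with the widest range over the 8 libraries, 1.00, from 4.08 to 5.09.

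HES1 was at 7.29 and 7.61 with Cx43 shRNA, both above all scramble libraries. The difference was 0.28 (SE 0.15, interval -0.10 to 0.65, adjusted p = 0.352), or 1.21-fold, and 0.29 (adjusted p = 0.881) without scramble replicate 1. The sign was the opposite of that with CDH2 shRNA.

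NOTCH1 was at 5.72 and 5.38, and replicate 2 lay within the scramble range, with a difference of 0.16 (SE 0.16, interval -0.22 to 0.55, adjusted p = 0.588). NOTCH2 was at 9.06 and 8.86, within the scramble range, and differed by -0.03 (SE 0.25, interval -0.65 to 0.58, adjusted p = 0.95). MAML1, at 5.93 and 5.96, was just above the scramble libraries and differed by 0.14 (SE 0.11, interval -0.13 to 0.41, adjusted p = 0.501).

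RBPJ, at 6.06 and 6.09, differed by -0.02 and NUMB, at 6.06 and 6.21, by 0.16. Neither difference was beyond the spread of the libraries (adjusted p = 0.904 and 0.517). Without scramble replicate 1, the differences of these 5 genes were 0.15, -0.05, 0.14, -0.02 and 0.17, in the order given, with adjusted p between 0.947 and 0.992.

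**Figure D3:**
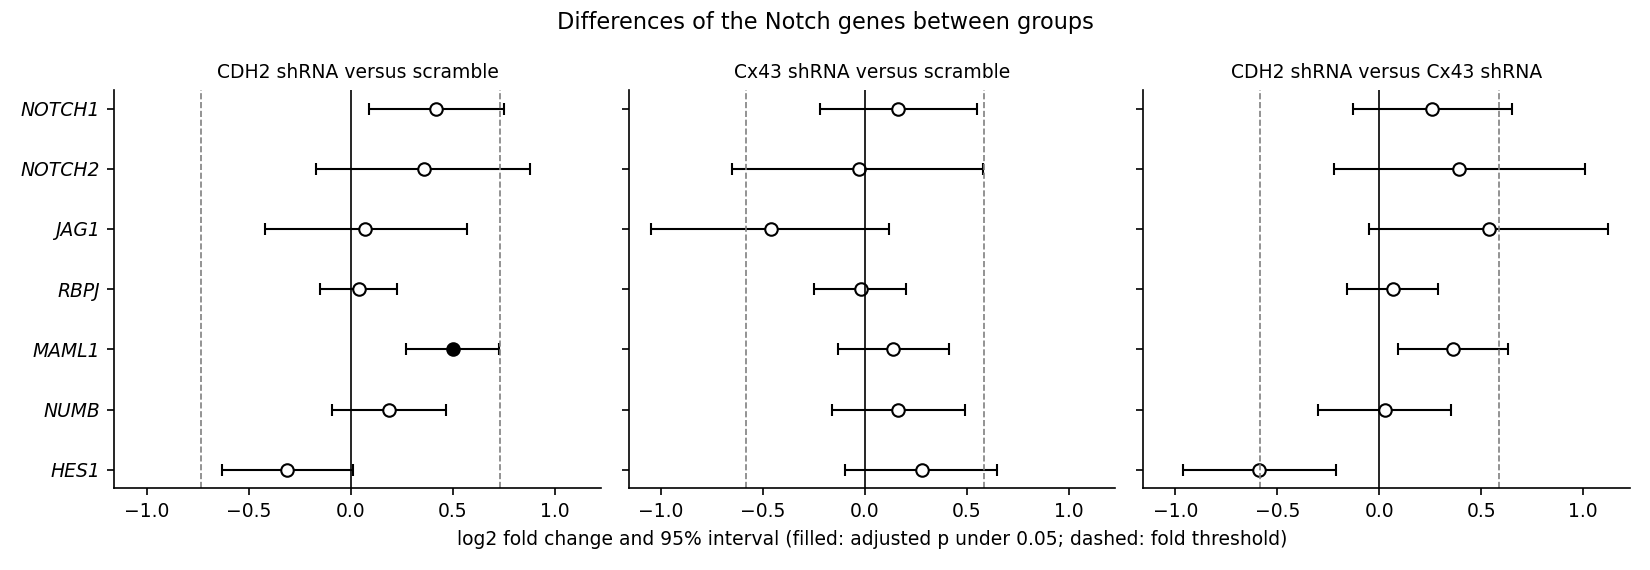
Differences between groups for the 7 Notch genes as log2 fold changes with 95% intervals from limma. The filled point is MAML1 under CDH2 shRNA (adjusted p = 0.0309), open points have an adjusted p of 0.05 or more, and dashed lines mark the fold thresholds, 0.73 in log2 for CDH2 shRNA versus scramble and 0.58 for the others.

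The direct comparison of CDH2 with Cx43 shRNA asked whether the knockdowns differ from each other. No gene in the table had an adjusted p under 0.05 by limma (0% past threshold and 0% at any fold), although 2591 had an unadjusted p under 0.05 and 2784 had an adjusted p under 0.05 without the replicate block. The 2 groups did not overlap for 4 of 7 Notch genes, as for 50.8% of all genes. These were NOTCH2, JAG1 and MAML1, higher with CDH2 shRNA, and HES1, lower. The same 4 genes had an adjusted p under 0.05 without CDH2 shRNA replicate 3 or scramble replicate 3 (0.53, 0.65, 0.41 and -0.60), a fit that called 2131 genes (16.5%), and HES1 alone (-0.59, adjusted p = 0.0338) without scramble replicate 2, where 6.69% of all genes were called.

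HES1 had the largest difference of the 7, -0.59 (SE 0.15, interval -0.96 to -0.21), or 0.67-fold, with an adjusted p of 0.155. All 3 CDH2 shRNA libraries were below both Cx43 shRNA libraries. The difference was -0.59 (adjusted p = 0.396) without scramble replicate 1, and over 17 alternatives it ran from -0.83 to -0.35, with an adjusted p from 0.016 to 0.679.

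JAG1 differed by 0.54 (SE 0.24, interval -0.05 to 1.12, adjusted p = 0.28) and MAML1 by 0.36 (SE 0.11, interval 0.09 to 0.63, adjusted p = 0.176). NOTCH2 differed by 0.39 (SE 0.25, interval -0.22 to 1.01, adjusted p = 0.423) and NOTCH1 by 0.26 (SE 0.16, interval -0.13 to 0.65, adjusted p = 0.402). For RBPJ and NUMB the differences were 0.07 (interval -0.16 to 0.29) and 0.03 (interval -0.30 to 0.35). Without scramble replicate 1, JAG1 differed by 0.54 (adjusted p = 0.495) and MAML1 by 0.36 (0.515), and NOTCH2, NOTCH1, RBPJ and NUMB by 0.40, 0.26, 0.07 and 0.03, with adjusted p from 0.609 to 0.971. A p that misses the threshold does not show that the knockdowns act alike on these genes.

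HES1 has relatives among the genes placed as targets in the pathway list below. Their values are given because they belong to the same class of basic helix-loop-helix proteins, and whether Notch drives them in these cells was not tested. Those other than HEY1 were added after their values had been seen. HES6 was at 3.63, 3.64 and 3.62 with scramble, at 3.46, 3.53 and 3.50 with CDH2 shRNA and at 3.99 and 3.91 with Cx43 shRNA, so its groups were ordered as those of HES1. HES4 and HES7 were also higher in both Cx43 shRNA libraries than in any other library, at 4.62 and 4.62 for HES4 and at 3.18 and 3.31 for HES7. HES4 (4.06 to 4.34) and HES7 (2.33 to 2.75) under CDH2 shRNA overlapped scramble (4.14 to 4.42 and 2.66 to 3.02).

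The HEY genes did not share this order. HEY1 was lowest with Cx43 shRNA, at 2.03 and 1.93, against 2.45, 2.53 and 2.38 with scramble and 2.25, 2.27 and 2.37 with CDH2 shRNA. HEYL was lower with CDH2 shRNA (2.58, 2.37 and 2.48) than with scramble (2.70, 2.69 and 2.69), and Cx43 shRNA (2.55 and 2.77) overlapped both. None of these 5 genes had an adjusted p under 0.05 in any comparison, and the smallest, 0.0907, was that of HEY1 with Cx43 shRNA (-0.48, SE 0.10).

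**Figure D4:**
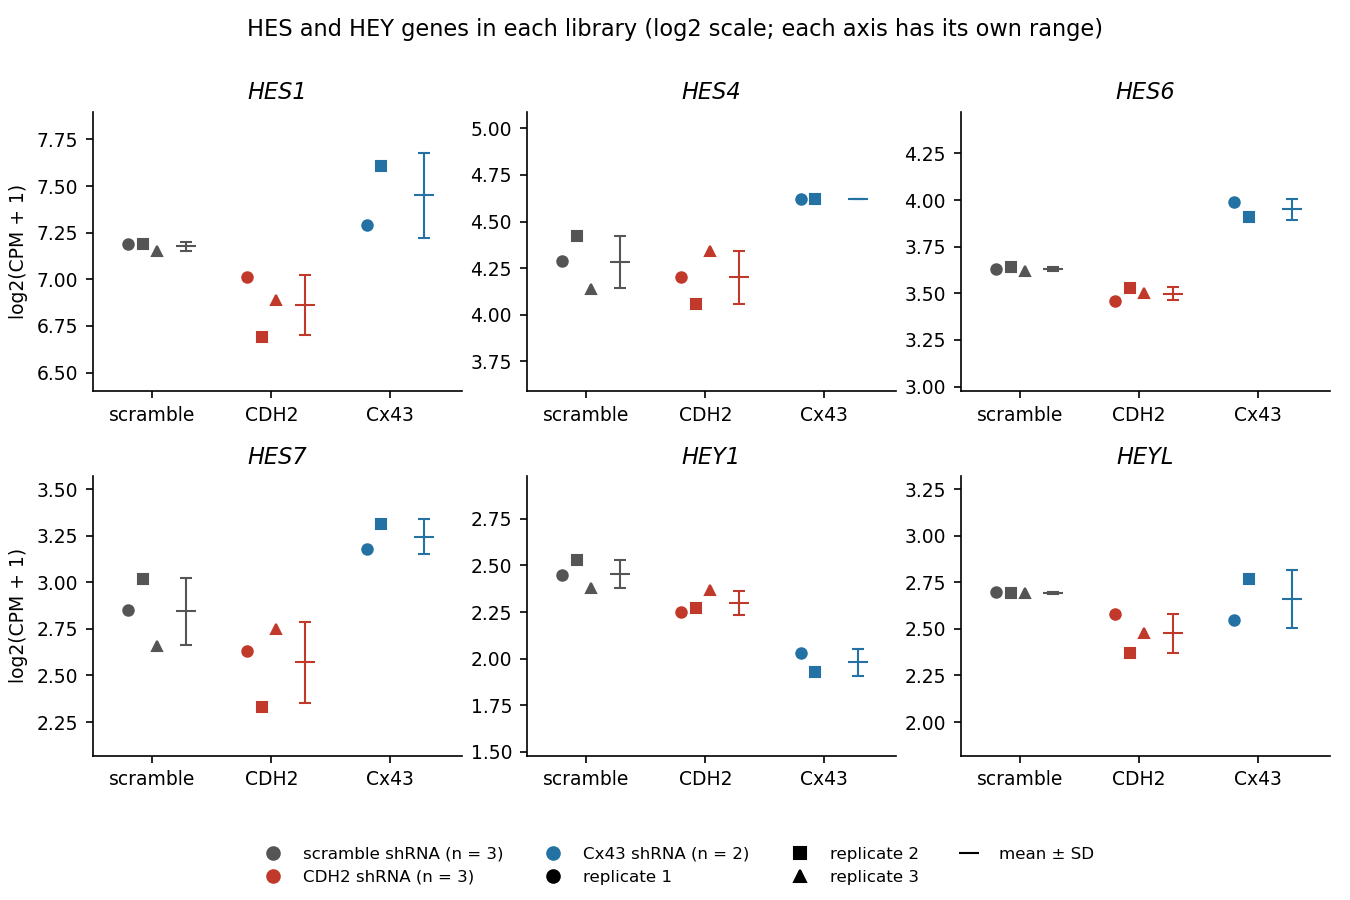
Values of 4 HES and 2 HEY genes in each library as log2(CPM + 1), by group, with the mean and SD beside the points. HES1, HES4, HES6 and HES7 are highest and HEY1 is lowest in the 2 Cx43 shRNA libraries, while HEYL overlaps scramble there.

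The wider pathway was covered by a list of 73 genes grouped by role, of which 60 had values, 53 of them beside the 7 genes above. Under CDH2 shRNA, 5 of 60 rose and 2 fell at an adjusted p under 0.05, against 7.29% and 6.98% of all genes, and 0 were past threshold (2.06% of all genes). The median log2 fold change of the 60 genes was 0.03. All 5 rises were in the longest of the 4 length groups, which held 24 of the 60 genes and in which 12.5% of all genes rose. Both falls were in the shortest, which held 11 of the 60 and in which 14.1% of all genes fell.

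The nuclear activators held 3 of the 5 rises: MAML1 and the histone acetyltransferases EP300 and CREBBP, which MAML1 brings to the Notch complex. EP300 was at 5.64, 5.47 and 5.84 with scramble and at 6.29, 6.52 and 6.12 with CDH2 shRNA, and rose by 0.66 (SE 0.15, adjusted p = 0.0417). CREBBP was at 6.63, 6.58 and 6.71 and at 7.00, 7.17 and 6.98, and rose by 0.41 (SE 0.10, adjusted p = 0.0446). For both, every CDH2 shRNA library was above every scramble library. The other 3 of the 6 nuclear activators did not pass: RBPJ, MAML2 (0.33, adjusted p = 0.246) and SNW1 (-0.16, 0.316).

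Among 9 corepressors, SPEN rose and CIR1 fell. SPEN, a scaffold that joins RBPJ to repressor complexes, was at 5.79, 5.69 and 5.92 with scramble and at 6.39, 6.56 and 6.30 with CDH2 shRNA, and rose by 0.62 (SE 0.11, adjusted p = 0.0291). CIR1, which links RBPJ to histone deacetylases, was at 4.82, 4.86 and 4.76 and at 4.20, 4.02 and 4.19, and fell by 0.68 (SE 0.09, adjusted p = 0.0209). In both cases the groups were apart.

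Of 9 proteases, PSENEN, a subunit of gamma-secretase, fell by 0.40 (SE 0.09, adjusted p = 0.0433). Its values were 3.77, 3.86 and 3.68 with scramble and 3.34, 3.30 and 3.46 with CDH2 shRNA. The highest and lowest values of the role were ADAM10 (0.22), the protease that cuts the receptor at the cell surface, and APH1B (-0.43, adjusted p = 0.0746). Of 13 targets, BCL2, an anti-apoptotic gene, rose by 0.44 (SE 0.10, adjusted p = 0.0404), from 2.88, 2.90 and 2.88 to 3.23, 3.41 and 3.33. The mean was lower for 10 of the 13 targets, against 6339 of all 12939 genes, and the median was -0.14. None of the 10 had an adjusted p under 0.05. Of the 10, HES1, HES4, HES6, HES7 and CDKN1A were in the shortest length group, where the median over all genes was -0.19. NRARP and SNAI2 were in the next longer group, where that median was -0.03. HEY1, HEYL and CCND1 were in the group after it, where the median was 0.08.

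No ligand, glycosyltransferase, ligand ubiquitin ligase or endocytic or degradation regulator passed under CDH2 shRNA. The extremes were JAG1 and the ligand DLL4 (-0.36, adjusted p = 0.147), and the glycosyltransferases POFUT1 (0.16, 0.343) and MFNG (-0.57, 0.0829), which modify the receptor. Among the ubiquitin ligases that act on ligands they were MIB1 (0.53, adjusted p = 0.187) and MIB2 (-0.41, 0.0618), and among the regulators the kinase AAK1 (0.32, 0.0549) and DTX3 (-0.43, 0.0581). Without scramble replicate 1, none of the 7 calls held, with adjusted p of 0.211 for MAML1, 0.191 for EP300, 0.275 for CREBBP, 0.184 for SPEN, 0.258 for BCL2, 0.275 for PSENEN and 0.15 for CIR1. None held without CDH2 shRNA replicate 1 or 2 or either Cx43 shRNA library, where limma called 0 genes in the table and 2943 to 4217 had an unadjusted p under 0.05. Without CDH2 shRNA replicate 3 or scramble replicate 3, 27 of 60 had an adjusted p under 0.05, as did 41% of all genes. After the correction for length and GC content, BCL2 alone of the 7 lost its call (0.25, adjusted p = 0.132), and PSENEN moved from -0.40 to -0.24 (adjusted p = 0.0467).

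**Figure D5:**
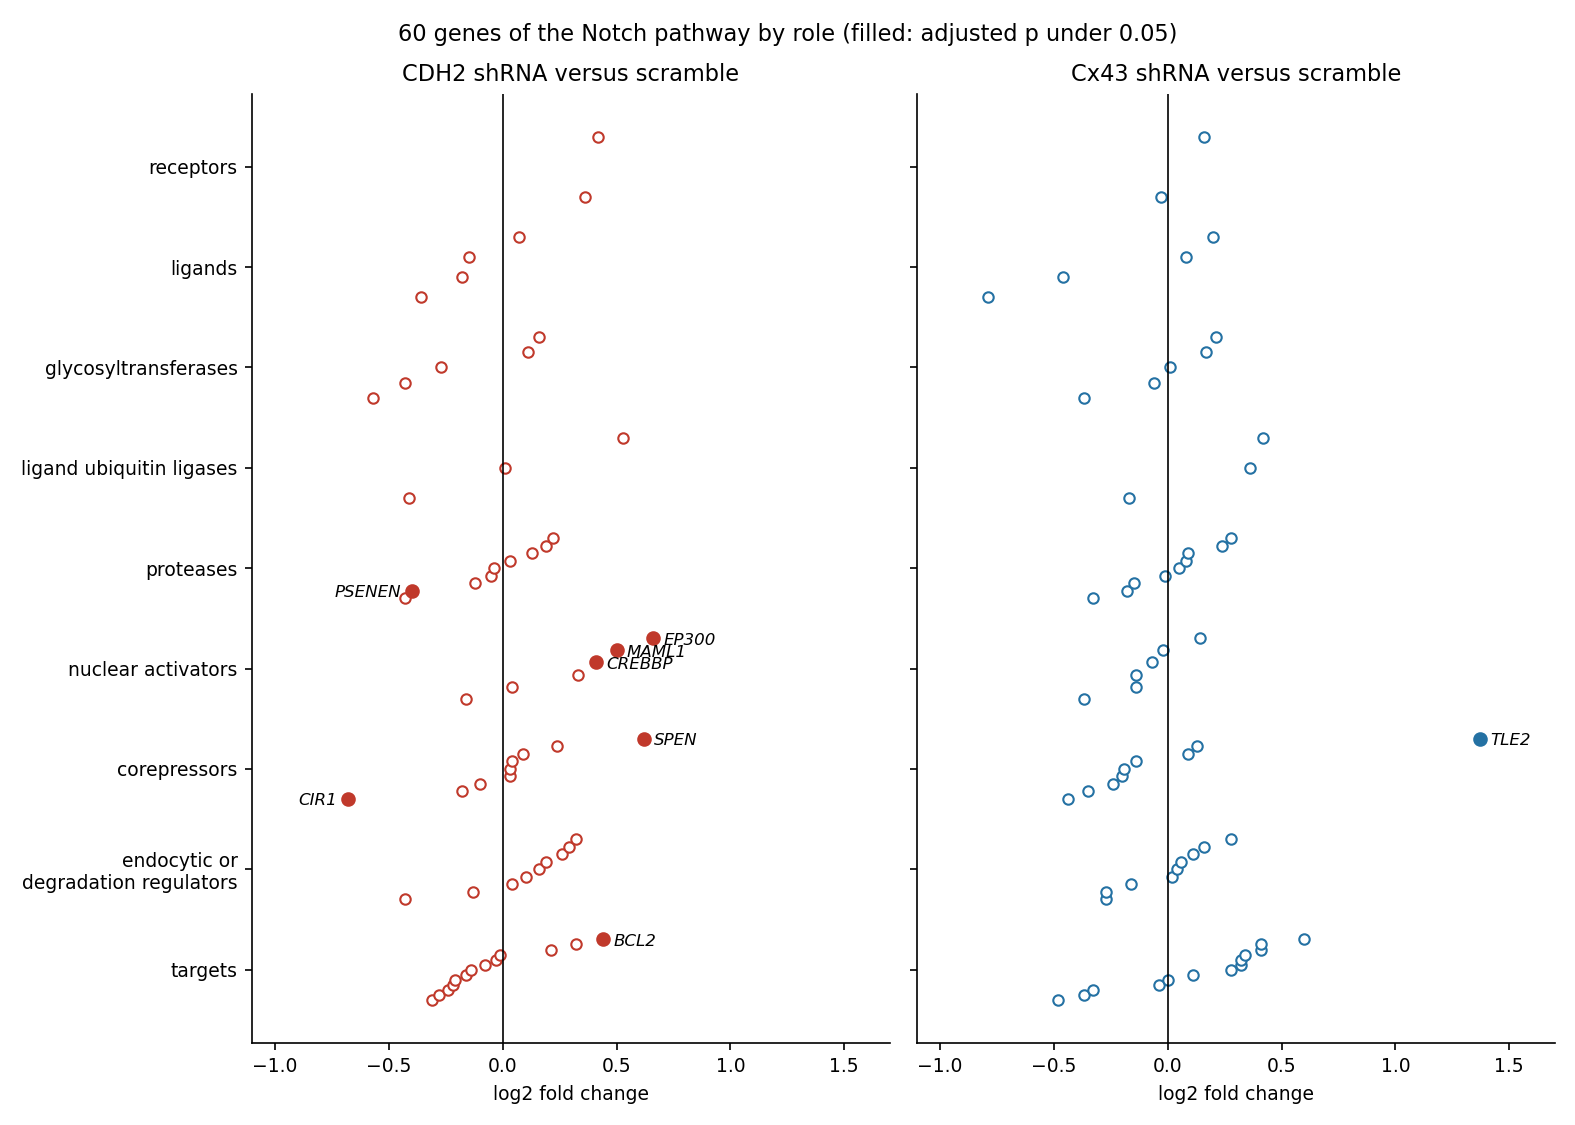
Log2 fold changes of 60 Notch pathway genes against scramble, by role, for CDH2 shRNA (left) and Cx43 shRNA (right). Filled and named points have an adjusted p under 0.05 by limma: 7 genes under CDH2 shRNA, 3 of them nuclear activators, and TLE2 under Cx43 shRNA.

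Under Cx43 shRNA, 1 of 60 genes had an adjusted p under 0.05 and was past threshold, against 1.21% and 1.18% of all genes, and the median of the 60 was 0.01. It was TLE2, a Groucho family corepressor that HES proteins recruit. TLE2 was at 1.05, 0.93 and 1.14 with scramble, at 1.43, 1.23 and 1.18 with CDH2 shRNA and at 2.25 and 2.57 with Cx43 shRNA. It rose by 1.37 in log2 (SE 0.15, interval 0.99 to 1.75), or 2.59-fold, with an adjusted p of 0.0349 by limma. TLE2 is a gene of low values, and its fold change depends on the 1 added to each CPM: with 0.1 in its place the difference was 1.94. The call was lost without scramble replicate 1 (1.38, adjusted p = 0.0924), without either Cx43 shRNA library (1.61 and 1.13, adjusted p = 0.211 and 0.31), and without CDH2 shRNA replicate 1 or 2 (0.0542 and 0.0695).

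The genes with the highest and lowest difference in the other roles did not pass under Cx43 shRNA. Among ligands, JAG2 (3.21 and 3.23 against at most 3.04 with scramble) differed by 0.20 (adjusted p = 0.241) and DLL4 (1.11 and 0.98 against 1.63 to 2.05) by -0.79 (0.0995). Among targets, MYC (7.77 and 7.87 against 7.19 to 7.25) differed by 0.60 (adjusted p = 0.0539) and HEY1 by -0.48. In these 4 genes, which are the extremes of their roles, the Cx43 shRNA libraries lay outside the scramble range, as they did for 37 of the 60 genes and 52.8% of all genes.

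In the remaining roles the extremes were LFNG (0.21) and MFNG (-0.37), NEURL1B (0.42, adjusted p = 0.0984) and MIB2 (-0.17), ADAM17 (0.28) and APH1B (-0.33), MAML1 (0.14) and MAML2 (-0.37), and NUMBL (0.28) and AAK1 (-0.27). CIR1 was the lowest corepressor (-0.44, adjusted p = 0.113). In the direct comparison 0 of 60 genes had an adjusted p under 0.05, although 20 had an unadjusted p under 0.05, as did 20% of all genes.

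For the 3 Notch genes with the widest range over the 8 libraries, the genes of the table with the most similar pattern were found by Pearson's r over those libraries. They were RBM41 (0.999), TNFRSF21 (0.998) and ADCY9 (0.996) for JAG1, KIRREL1 (0.999), ARCN1 (0.998) and TIGD2 (0.995) for NOTCH2, and UNC50 (0.999), NRBP1 (0.997) and ZBTB42 (0.995) for HES1. These values are a description: the highest of 12939 genes were taken, over 8 libraries that are tied to each other by replicate number.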

How the data were processed

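The deposited values are log2(CPM + 1), made by the authors in Partek Flow. Reads were aligned to hg38 with STAR, a low-quality sample was removed and counts were normalized. A batch effect between replicates of sequencing was removed by a log normal model, with shrinkage, and genes with low values were dropped. The annotation used is not given in the sources used here. From these, 12939 genes were read, and 1 line without a gene name was left out.

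limma 3.58.1 in R 4.3.3 (lmFit, eBayes) was fitted on all genes and 8 libraries. The labels do not say that the replicate numbers are the batch whose effect the authors removed. Because a batch effect had been removed, the model held the group and a block for the replicate number. This left 3 residual degrees of freedom, and limma added 2.84. The deviations from the group means spanned only 2 directions over the libraries, fewer than these degrees of freedom. Standard errors, intervals and p-values of the main fit may thus be too small. With the residual spread over 2 directions, genes with an adjusted p under 0.05 by limma went from 1846 to 296 under CDH2 shRNA. Under Cx43 shRNA they went from 156 to 82. P-values were two-sided and adjusted by Benjamini-Hochberg over all genes, and intervals are 95%. The fit was tested on simulated data, in which the libraries varied independently before a batch effect was removed. That test therefore does not show how the fit behaves with deviations in only 2 directions. The depth is unknown, so no counting interval is given. Where 3 libraries face 2 or 3, no test of a single gene was run outside limma.

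The members and lists were chosen with earlier results of these data known. The genes named were the members, each listed gene with an adjusted p under 0.05, and in each role the highest and lowest fold change against scramble. For the 3 members with the widest range, the 3 genes with the highest r were also named. Gene positions and lengths came from GENCODE v44 (hg38), matched for 12181 genes (94.1%), and upstream sequences from RefSeq (GRCh38.p14). Figures used matplotlib 3.10.9. Alternatives were quantile normalization, median centring, a filter that kept 75% of genes, a pseudocount of 0.1, no replicate block, a trend in eBayes, residual spread over 2 directions, a fit of the compared groups alone, other thresholds, each library left out, and, added after the data were seen, the length and GC correction. Genes with no values were not analysed here.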

Additional observations from a re-analysis of the deposited data

Results flagged for a closer look

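For 5 pathway genes every CDH2 shRNA library differed from the scramble library of the same number in one direction and every Cx43 shRNA library in the other. How many of all genes had this pattern was not counted, so it is not shown to be particular to the pathway. The 2 knockdown groups did not overlap for 50.8% of all genes. The 5 genes were picked by these signs, which favours a large direct difference. The direct difference between the knockdowns was tested by limma with the replicate block and did not reach an adjusted p of 0.05 for any of them. For HES1, lower under CDH2 shRNA by 0.18, 0.50 and 0.26 and higher under Cx43 shRNA by 0.10 and 0.42, the difference was -0.59 (SE 0.15, adjusted p = 0.155). It was -0.38 (SE 0.08, adjusted p = 0.134) for the ligand JAG2, which had the same signs. The signs were the opposite, higher under CDH2 shRNA and lower under Cx43 shRNA, for CREBBP (0.55, SE 0.11, adjusted p = 0.124), SPEN (0.82, SE 0.13, adjusted p = 0.115) and the kinase AAK1 (0.59, SE 0.10, adjusted p = 0.115). Both knockdowns were set against the same scramble libraries, and scramble replicate 1 lay at the mean of replicates 2 and 3. Groups of 3 or fewer libraries were not searched for outlying libraries.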

How the results depend on the processing

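The count of Notch genes past threshold was 0 in each comparison. For CDH2 shRNA versus scramble it became 1 at any fold, and it was 0 when any library was left out. In the direct comparison it was 1 without the replicate block and 0 to 2 with a library left out. For the pathway list, the count under CDH2 shRNA was 0, 7 at any fold, and 0 to 3 with a library left out. Under Cx43 shRNA it was 1, and 0 with 75% of genes, a filter that removed TLE2 before the test. It was 2 with only the groups compared, 3 with an adjusted p under 0.1 and 3 without the replicate block. With a library left out it was 0 to 2. In the direct comparison it was 0, 6 with only the groups compared, 7 without the block, and 0 to 8 with a library left out.

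The deviations of libraries with the same replicate number had r from -1 to 0.951, and since they are tied within a number they do not show whether the numbers pair the samples. Without the replicate block, 3 Notch genes had an adjusted p under 0.05 under CDH2 shRNA, NOTCH1 (0.0199), MAML1 (0.00163) and HES1 (0.0483), and 2 in the direct comparison, HES1 (0.016) and MAML1 (0.0165). These fits called 43.3% and 21.5% of all genes. With the residual spread over 2 directions, MAML1 had an adjusted p of 0.0858 and 1 of the 7 calls of the list under CDH2 shRNA held. In a fit of only CDH2 shRNA and scramble, limma called 0 genes, 4217 had an unadjusted p under 0.05, and MAML1 had an adjusted p of 0.0694. Without CDH2 shRNA replicate 3 or scramble replicate 3, which give the same fit, 4 genes had an adjusted p under 0.05 under CDH2 shRNA: NOTCH1 (0.0317), NOTCH2 (0.00749), MAML1 (0.0022) and NUMB (0.048), as did 41% of all genes. With only the groups compared, JAG1 under Cx43 shRNA had an adjusted p of 0.0425, and 21.7% of all genes were called.

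Signs changed for differences of at most 0.16 in size. Under CDH2 shRNA, JAG1 was -0.03 and RBPJ -0.14 after the length and GC correction, RBPJ was -0.02 after quantile normalization, and JAG1 ran from -0.20 to 0.30 with a library left out. Under Cx43 shRNA, NOTCH2 was 0.10 and EP300 0.03 with only the groups compared, and with a library left out NOTCH2 ran from -0.29 to 0.11, NOTCH1 from -0.10 to 0.42, RBPJ from -0.07 to 0.01 and EP300 from -0.25 to 0.03. In the direct comparison, the correction gave 0 for RBPJ, -0.04 for NUMB and -0.03 for BCL2, and leaving out a library gave -0.09 to 0.14 for NUMB and -0.04 to 0.27 for BCL2. The cause was not tested. Of 357 values of Notch genes under alternatives, 313 kept their direction and side of the threshold, 7 lost and 20 gained a call, and 17 changed sign. Unknown depth, 2 to 3 libraries a group and a scramble library with little information of its own limit these values.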
